A study of Homo sapiens with 14 samples.

Results

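The platelet-derived growth factor (PDGF) family is described here in SK-N-BE2 cells (BE2), an established MYCN-amplified neuroblastoma line, through its 2 receptors (PDGFRA and PDGFRB) and 4 ligands (PDGFA, PDGFB, PDGFC and PDGFD). These 6 members were taken by gene symbol from tables of 19923 genes. The family was chosen with its values in these same libraries known, so its differences between treated and control groups are given as a description without p-values. For these comparisons only the number of members called is given, beside the share over all genes, and nothing is read from it. Members have p-values only in comparisons whose contrast leaves out the controls. The control libraries still enter the low-count filter, the scaling and the estimate of spread. The groups compared there were also known when the family was chosen, so these p-values are not independent of that choice. RNA was sequenced from 14 libraries in 7 groups of 2. Batch 1 held cells of genotype WT given H2O, CoCl2 at 10 µM or CoCl2 at 50 µM. Batch 2 held untreated cells, WT or labelled TET2KO #1, #2 or #3, and its controls are called the WT group. All cells were grown in RPMI1640 medium with 10% serum. The labels do not give the duration of treatment, how the knockouts were made, whether each is 1 clone, or whether the 2 replicates came from separate cultures. Every error and p-value therefore measures the spread between these libraries, which may be technical.

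PDGFs are secreted dimers that bind receptor tyrosine kinases on the cell surface, which then pair, phosphorylate each other and recruit signalling proteins such as phosphatidylinositol 3-kinase and phospholipase C gamma. PDGFA and PDGFB are activated inside the cell by proprotein convertases, whereas PDGFC and PDGFD are secreted in a latent form and need a protease outside the cell. The PDGF-DD dimer acts mainly through PDGFRB. In tissues the receptors are typical of fibroblasts and mural cells, the cells that wrap blood vessels, and PDGFB is a typical product of endothelial cells. CoCl2 stabilises hypoxia-inducible factors (HIF) and is used to imitate low oxygen, and TET2 oxidises 5-methylcytosine to 5-hydroxymethylcytosine.

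The libraries held 31214128 to 39540111 counts in batch 1 and 52095024 to 59263320 in batch 2. Of counts from 1 to 10, 39.0% to 42.3% were even in the batch 1 libraries and 77.3% to 80.5% in those of batch 2, as if most fragments were counted once in batch 1 and as 2 reads in batch 2. If so, a batch 2 count carries less information than its size shows. TET2 mRNA was not lower in the labelled knockouts, at 67.8 ± 4.3 CPM (counts per 1000000 counts of the scaled library total; SD, n = 2) in WT, 78.5 ± 2.7 in TET2KO #1, 89.2 ± 2.7 in #2 and 71.8 ± 5.1 in #3. A gene-level count does not show whether a transcript still encodes the protein, so these values do not check the labels. The neuroblastoma markers that passed the filter on low counts in both batches numbered 11, with group means of 577.8 to 740.8 CPM for HAND2. MYCN was at 4497 to 5568 CPM in batch 1 and 4571 to 4707 CPM in WT, TET2KO #1 and #3, but at 2826 CPM in #2 (log2 -0.71 against WT, edgeR adjusted p = 9.21e-71). Of 11 HIF target genes, 8 rose and 2 fell at 50 µM CoCl2 against H2O, while 3 rose and 5 fell at 10 µM (edgeR's quasi-likelihood test, adjusted over all genes tested, of which 61.4% and 22.7% were called). Without the second 10 µM library 1 rose at 10 µM, and without the first H2O library 1 fell at 50 µM.

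Per kilobase of exon, PDGFRB was the family's most abundant transcript in every group and PDGFD came next. PDGFRB made up 54.0% ± 1.9 (SD, n = 2) of the summed CPM per kb of the 6 members in H2O and PDGFD 45.2% ± 1.8. In WT of batch 2, PDGFRB made up 64.3% ± 2.3, PDGFD 19.0% ± 0.52, PDGFRA 11.6% ± 0.62, PDGFB 3.79% ± 1.6 and PDGFA 1.20% ± 0.91. In H2O the PDGFRA share was 0.394% ± 0.13. The family total was 10.2 ± 0.56 CPM per kb in H2O, 7.46 ± 0.060 at 10 µM CoCl2 and 3.52 ± 0.027 at 50 µM. It was 9.33 ± 0.010 in WT, 5.32 ± 0.031 in TET2KO #1, 4.10 ± 0.13 in #2 and 6.37 ± 0.029 in #3. The total was thus lower in all treated and labelled knockout groups than in the control of the same batch.

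**Figure D1:**
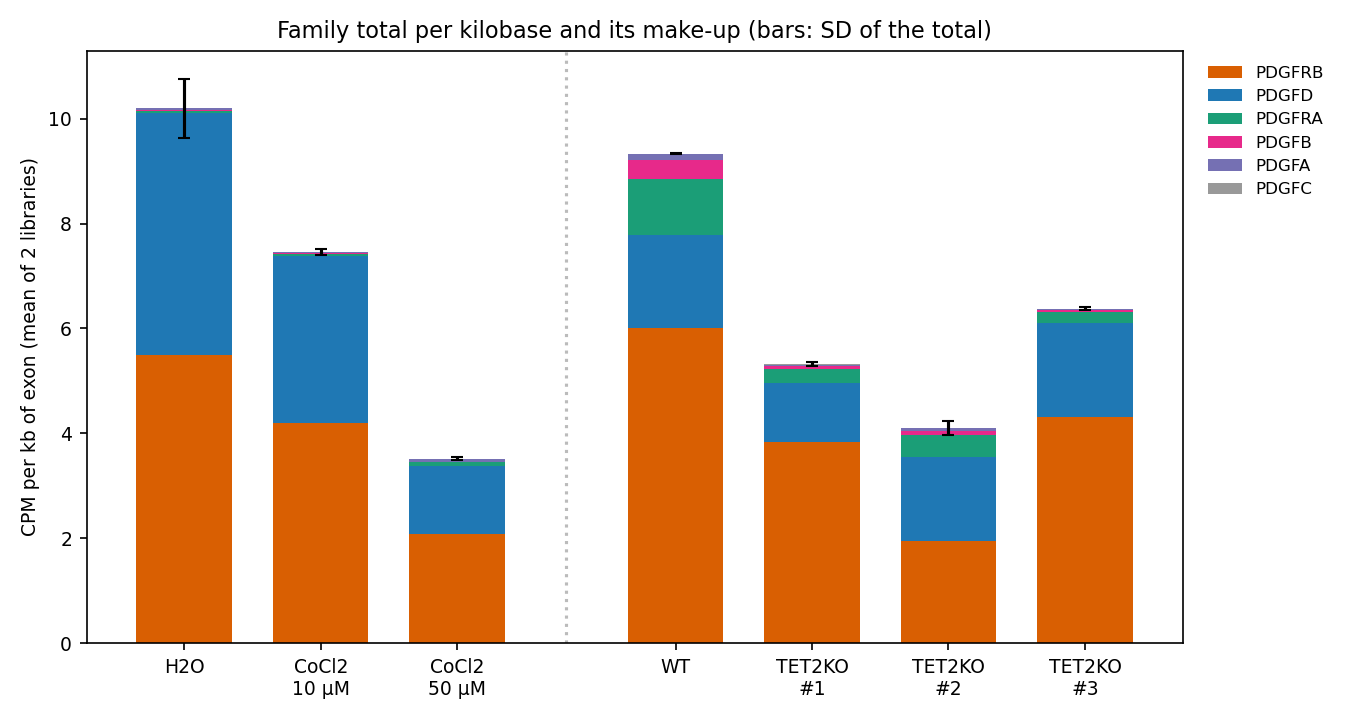
Bars show the summed mean CPM per kb of exon of the 6 members (vertical axis) in the 7 groups (horizontal axis), split by member, with the SD of the total over 2 libraries as error bars and a dotted line between the batches. PDGFRB and PDGFD fill nearly all of each batch 1 bar, and the total goes from 10.2 in H2O to 3.52 at 50 µM CoCl2 and from 9.33 in WT to 4.10 in TET2KO #2.

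PDGFRB (5:150113839-150155872, minus strand, GRCh38, 7.135 kb of exon) encodes the beta receptor, which binds PDGF-BB and PDGF-DD. Its normalised level was 39.8 and 38.7 CPM in the H2O libraries, 30.3 and 29.5 at 10 µM CoCl2, and 15.5 and 14.4 at 50 µM. The level was lower at each higher dose. Against H2O the log2 difference was -0.39 (SE 0.044) at 10 µM and -1.40 (SE 0.053) at 50 µM, a level 2.64-fold lower. PDGFD (11:103907189-104164379, minus strand, 4.263 kb of exon) encodes the ligand D, which is made as a latent chain with a CUB domain. It was at 21.0 and 18.4 CPM in H2O, 13.5 and 13.7 at 10 µM, and 5.15 and 5.82 at 50 µM. It too was lower at each higher dose. The log2 difference from H2O was -0.53 (SE 0.063) at 10 µM and -1.83 (SE 0.081) at 50 µM, a level 3.57-fold lower. The ligand and its main receptor were thus both lower at each dose than in H2O.

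**Figure D2:**
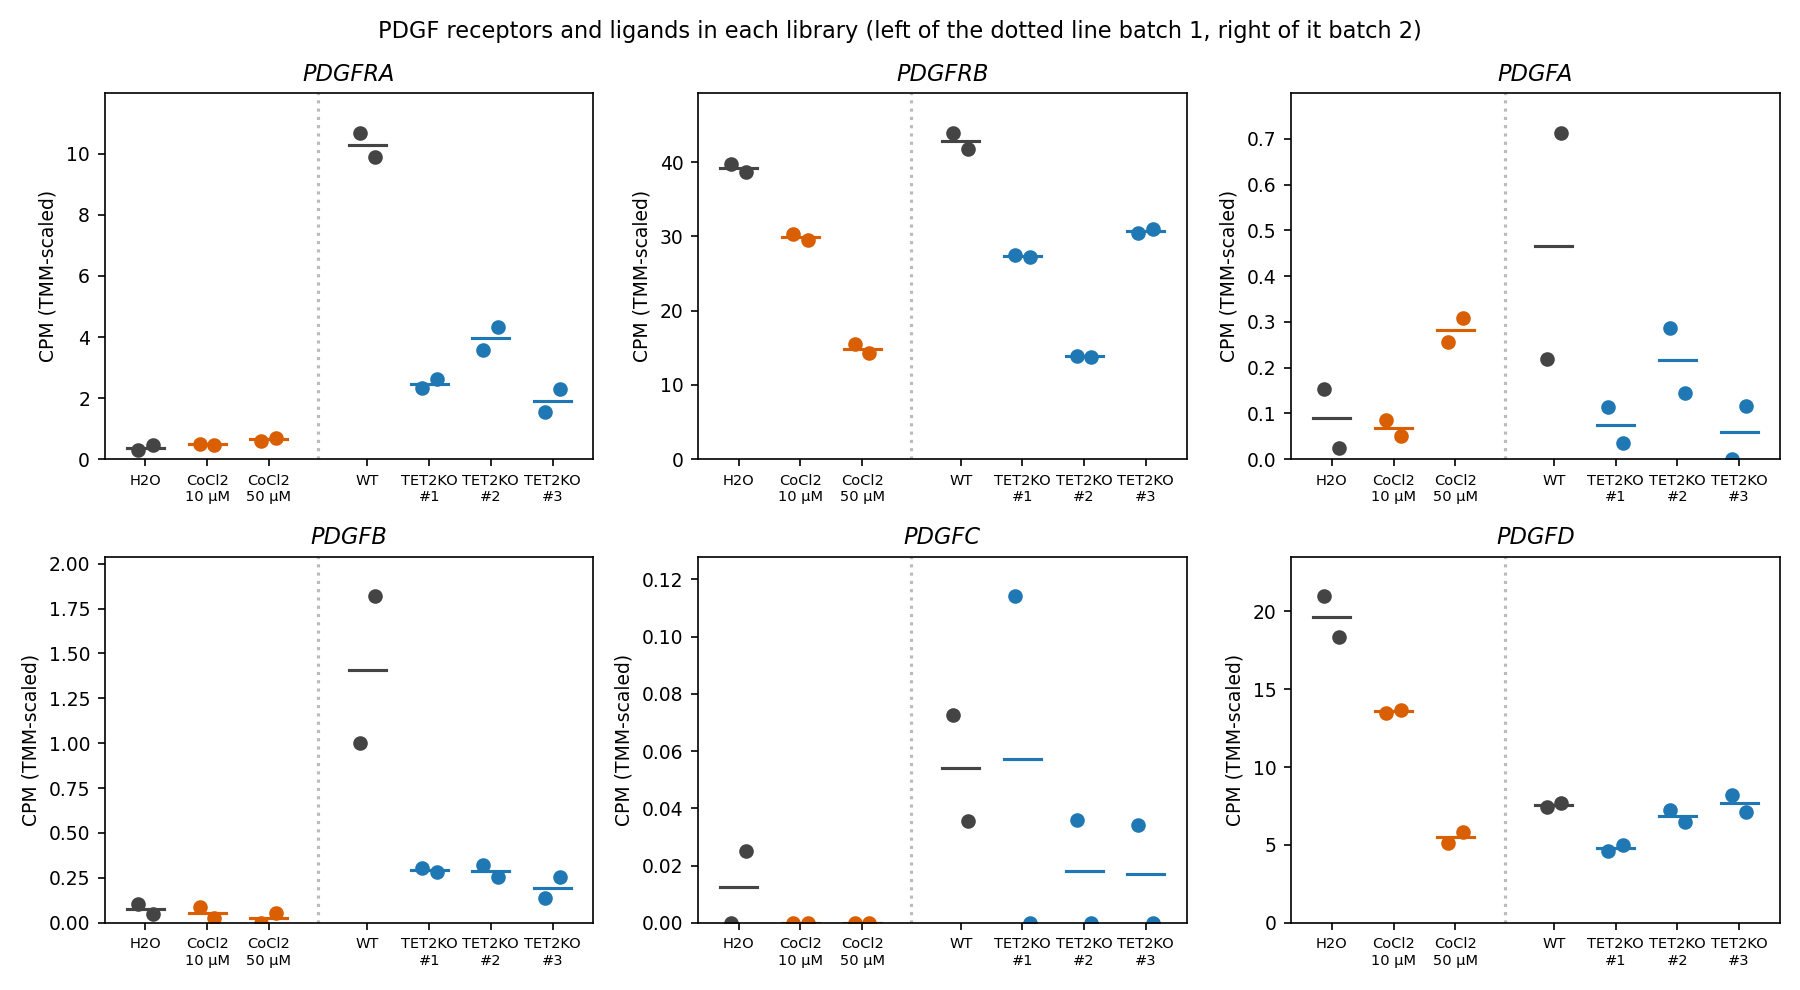
Each panel plots 1 gene's CPM (vertical axis, scaled per panel from 0) in every library by group (horizontal axis), with points for the 2 libraries, a line for their mean, grey controls, orange CoCl2 and blue labelled knockouts. PDGFRB and PDGFD step down with the CoCl2 dose, PDGFRA and PDGFB are highest in WT, and the PDGFC panel holds at most 6 counts per library.

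PDGFRA (4:54229280-54298245, plus strand, 9.547 kb of exon) encodes the alpha receptor, which binds all ligands of the family except PDGF-DD. It was close to the lower limit of what batch 1 could measure, with 12 and 18 counts in H2O, 18 and 18 at 10 µM and 19 and 25 at 50 µM. The levels were 0.307 and 0.454 CPM in H2O and 0.608 and 0.700 at 50 µM. The log2 difference from H2O was 0.35 (SE 0.38) at 10 µM and 0.78 (SE 0.36) at 50 µM. The other ligands had 19 counts or fewer per group. PDGFA, a ligand of the alpha receptor, had 6 and 1 counts in H2O, 3 and 2 at 10 µM and 8 and 11 at 50 µM. Summed over libraries its level at 50 µM was 3.19 times that in H2O (95% interval 1.29 to 8.99, exact, counting error only). PDGFB, a ligand of both receptors, had 4 and 2 counts in H2O and 0 and 2 at 50 µM, a ratio of 0.392 (95% interval 0.0387 to 2.19). PDGFC had 1 count in all of batch 1.

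Of the 6 members, 3 passed the low-count filter in batch 1. The test with an adjusted p of 0.05 as threshold called 2 of them at 10 µM against H2O, where it called 22.7% of all 13636 genes tested, and 2 at 50 µM, where it called 61.4%. Both were lower, PDGFRB and PDGFD, and the family was chosen on these comparisons. The count at 50 µM was 3 when either 10 µM library or the second H2O library was left out, PDGFRA being the third at a log2 difference of 0.78, 0.78 and 1.09. It was also 3 with no filter on low counts, PDGFA then being called at a log2 difference of 1.63. The median over the 3 members was -0.39 at 10 µM and -1.40 at 50 µM, beside -0.001 and 0.002 for all genes tested.

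The step between the doses was tested by a contrast that leaves out H2O, in a fit over all batch 1 libraries. The values at both doses were known when the family was chosen. The p-values given here are therefore not independent of that choice. PDGFRB fell from 29.9 ± 0.54 CPM at 10 µM to 14.9 ± 0.78 at 50 µM (log2 difference -1.01, SE 0.057, edgeR's quasi-likelihood test, Benjamini-Hochberg adjusted p = 4.21e-38). PDGFD fell from 13.6 ± 0.15 to 5.49 ± 0.47 CPM (log2 difference -1.30, SE 0.089, edgeR adjusted p = 7.89e-30). For PDGFRA the difference was 0.43 with a 95% interval of -0.24 to 1.10 (edgeR adjusted p = 0.298), an interval that holds both no change and a doubling. Thus 2 of 3 members tested were called, both lower, beside 52.8% of all genes. With no filter on low counts PDGFA was called too, at a log2 difference of 2.01 from 5 counts at 10 µM to 19 at 50 µM.

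Sequence before the gene starts was read from a RefSeq promoter table (GRCh38.p14), which matched 4 of the 6 members and has no entry for PDGFB and PDGFC. The stretches in front of the 2 receptor genes are shown for 2 reasons. PDGFRB was lower under CoCl2, while PDGFRA, at 25 counts or fewer per batch 1 library, was not called in the main fit. The enzyme named in the knockout labels acts on methylated cytosines at CpG. CpG dinucleotides are in capitals, each sequence runs 5′ to 3′ on the gene's strand, and bases inside the gene as the count tables draw it are left out. PDGFRA (first start) is chr4:54229043-54229279, plus strand, and PDGFRB is chr5:150155873-150156095, minus strand.
PDGFRA: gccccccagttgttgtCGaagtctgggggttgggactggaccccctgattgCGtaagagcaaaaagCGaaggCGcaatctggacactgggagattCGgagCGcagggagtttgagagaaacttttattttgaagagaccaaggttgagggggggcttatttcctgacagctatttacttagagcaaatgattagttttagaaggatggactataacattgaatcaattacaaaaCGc
PDGFRB: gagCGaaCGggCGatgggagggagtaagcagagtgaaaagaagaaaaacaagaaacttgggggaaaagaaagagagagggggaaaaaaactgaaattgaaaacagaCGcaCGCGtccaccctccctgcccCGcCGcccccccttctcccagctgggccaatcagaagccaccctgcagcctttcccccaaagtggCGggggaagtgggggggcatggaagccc

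The printed stretches hold 7 CpG for PDGFRA and 9 for PDGFRB. In the full 250 bases before each start, PDGFRA held 8 CpG at its first start and 25 at its second, PDGFRB 9, PDGFD 23 and PDGFA 17 to 40 over 4 starts, beside a median of 11 in all 35116 windows. The 2 members that fell with the CoCl2 dose thus lay on either side of that median. The core letters of HIF binding were searched on both strands as ACGTG and GCGTG. The first form was in none of the members' windows and in 18.5% of all windows. The form GCGTG was in the PDGFRB window once, in 3 of the 4 PDGFA windows and in no PDGFRA or PDGFD window, against 32.2% of all windows. A match is only a match of letters, and none of these windows was measured here.

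Against WT, PDGFRA had the larger difference of the 2 receptors in TET2KO #1 and #3, and PDGFRB in #2. PDGFRA was at 10.7 and 9.90 CPM in WT, 2.32 and 2.61 in TET2KO #1, 3.59 and 4.34 in #2, and 1.54 and 2.30 in #3. Each labelled knockout library was below both WT libraries. The log2 difference from WT was -2.06 (SE 0.16) in #1, -1.38 (SE 0.14) in #2 and -2.44 (SE 0.17) in #3, levels 0.240, 0.385 and 0.184 times that of WT. PDGFRB was at 44.0 and 41.7 CPM in WT, 27.4 and 27.2 in TET2KO #1, 13.9 and 13.8 in #2, and 30.4 and 31.0 in #3. All 6 libraries of the labelled knockouts were again below WT, and TET2KO #2 was far below the other two. The log2 difference from WT was -0.65 (SE 0.066) in #1, -1.63 (SE 0.076) in #2 and -0.48 (SE 0.065) in #3, levels 0.638, 0.324 and 0.717 times that of WT. These 3 comparisons share the same 2 WT libraries. In bulk RNA, fewer cells that carry a transcript and less of it per cell cannot be told apart.

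Among the ligands, PDGFB was lower in all labelled knockouts. PDGFB (22:39223359-39244982, minus strand) was at 1.00 and 1.82 CPM in WT, 0.304 and 0.283 in TET2KO #1, 0.323 and 0.253 in #2, and 0.137 and 0.253 in #3. The WT libraries differed from each other, at 55 and 102 counts, and those of the labelled knockouts had 8 to 18 counts. The log2 difference from WT was -2.26 (SE 0.42) in #1, -2.29 (SE 0.42) in #2 and -2.87 (SE 0.46) in #3. PDGFA (7:497258-520296, minus strand) had 12 and 40 counts in WT, 6 and 2 in TET2KO #1, 16 and 8 in #2, and 0 and 6 in #3. The 2 WT libraries were far apart, and TET2KO #2 overlapped them. The log2 difference was -2.64 (SE 0.78) in #1, -1.11 (SE 0.60) in #2 and -3.05 (SE 0.83) in #3, and without the second WT library it was -1.55, -0.02 and -1.96, none of them called.

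In TET2KO #2 and #3 PDGFD differed less from WT than the other members tested, while in #1 its difference equalled that of PDGFRB. It was at 7.42 and 7.70 CPM in WT, 4.64 and 5.00 in TET2KO #1, 7.26 and 6.48 in #2, and 8.20 and 7.14 in #3. The TET2KO #1 libraries lay below all others and those of TET2KO #3 overlapped WT. The log2 difference was -0.65 (SE 0.14) in #1, -0.14 (SE 0.13) in #2 and 0.03 (SE 0.13) in #3. PDGFC (4:156760454-156971799, minus strand), a ligand of the alpha receptor, had 6 counts in WT, 6 in TET2KO #1 and 2 each in #2 and #3 and passed the filter in neither batch.

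Of the 6 members, 5 passed the filter in batch 2. The test called 5 of them in TET2KO #1, beside 17.5% of all 14061 genes tested, 3 in #2, beside 26.3%, and 4 in #3, beside 18.9%. All calls were lower than WT, and the family was chosen on these comparisons. PDGFA passed the filter through the WT libraries, at 12 and 40 counts, since no labelled knockout had 12 or more in both libraries. Passing in that way favours a value below WT, so nothing is read from the PDGFA calls or from its part in the median. PDGFA made the difference between settings. The count in #1 was 4 without the second library of TET2KO #1, without the second WT library or with DESeq2, the count in #3 was 3 without the first library of TET2KO #3 or the second WT library, and the count in #2 was 4 without the first WT library. The median over the 5 members was -2.06, -1.38 and -2.44 in #1, #2 and #3, beside medians of at most 0.001 from 0 for all genes tested.

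**Figure D3:**
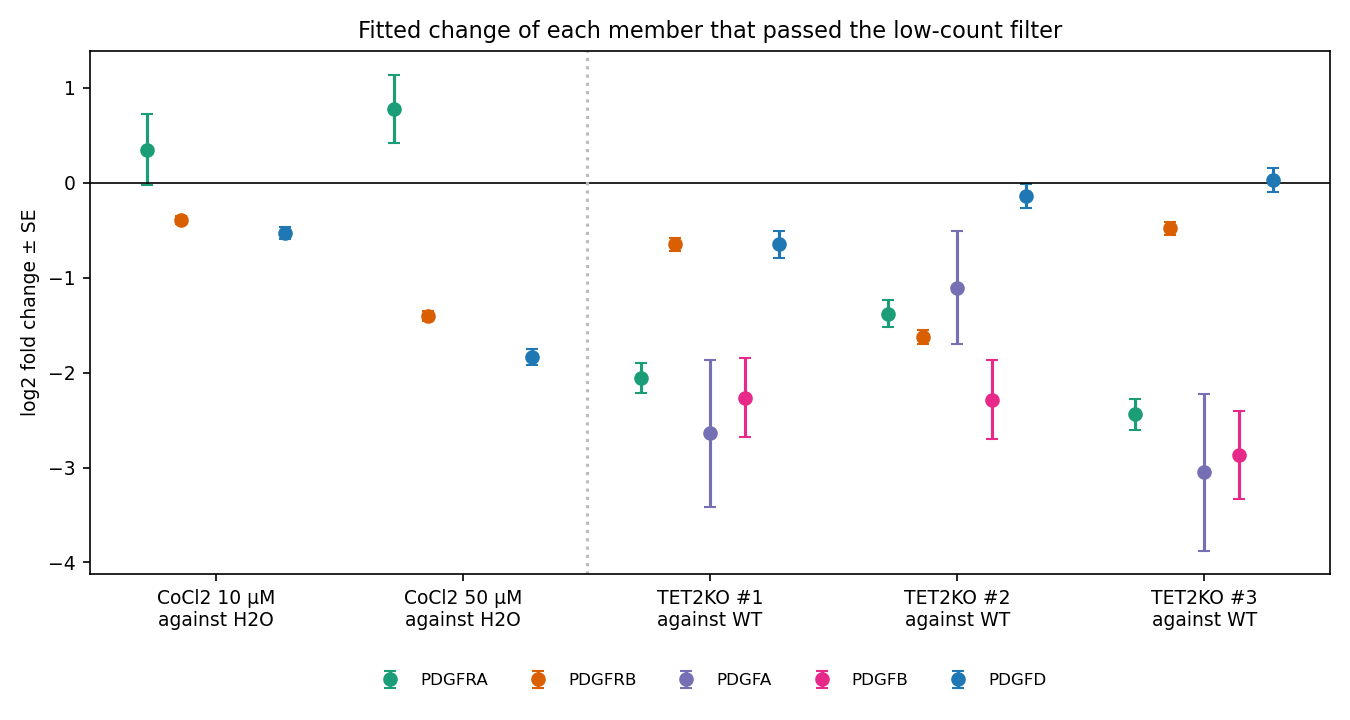
Points give the fitted log2 fold change (vertical axis) of each member that passed the low-count filter in the 5 comparisons with a control (horizontal axis), with SE bars and a dotted line between the batches. PDGFD and PDGFRB lie together under CoCl2 (-1.83 and -1.40 at 50 µM), whereas in the labelled knockouts PDGFB lies at -2.26, -2.29 and -2.87 and PDGFD near 0 in #2 and #3.

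Whether the 3 labelled knockouts differed from each other was tested by a contrast that leaves out WT, in a fit over all batch 2 libraries. The values of the labelled knockouts were known when the family was chosen, so these p-values are not independent of that choice. Of 5 members tested, 3 were called, beside 37.6% of all genes. PDGFRB differed most firmly, with 1.15 log2 units between the highest (#3) and the lowest (#2; edgeR F-test over 3 groups, adjusted p = 6.78e-32). It was 2.21-fold higher in #3 than in #2 (edgeR adjusted p = 1.22e-30) and 1.97-fold higher in #1 than in #2 (edgeR adjusted p = 5.59e-23). Between #3 and #1 the difference was 0.17 (SE 0.071, edgeR adjusted p = 0.132).

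PDGFRA had the opposite order, with the highest level in #2 and a span of 1.06 log2 units (edgeR adjusted p = 1.8e-05). It was 2.09-fold higher in #2 than in #3 (edgeR adjusted p = 7.87e-06) and 1.60-fold higher than in #1 (edgeR adjusted p = 0.00391), while #3 and #1 differed by -0.38 (SE 0.23, edgeR adjusted p = 0.365). The labelled knockout with the least PDGFRB thus had the most PDGFRA. It was also the one with the lowest MYCN, at 2826 ± 15 CPM, and the highest TBX2, at 121.6 ± 5.8 CPM against 75.6 and 58.4 in #1 and #3, and all 11 neuroblastoma markers tested differed among the 3, beside 37.6% of all genes. The part of this in the receptors' values was not tested. PDGFD spanned 0.68 log2 units (edgeR adjusted p = 8.68e-05) and was lowest in #1, 1.42-fold below #2 (edgeR adjusted p = 0.00352) and 1.60-fold below #3 (edgeR adjusted p = 0.000234). PDGFA spanned 1.94 (edgeR adjusted p = 0.193) and PDGFB 0.61 (edgeR adjusted p = 0.717), with SEs of 0.62 to 1.30 on their pairwise differences, so differences of that size could not be detected at these counts.

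The 2 control groups are of the same genotype but were counted and normalised separately, and batch and culture cannot be told apart between them. PDGFRB was at 39.2 ± 0.78 CPM in H2O and 42.8 ± 1.6 in WT. PDGFRA was at 0.380 ± 0.10 CPM in H2O and 10.3 ± 0.56 in WT, PDGFB at 0.0763 ± 0.037 and 1.41 ± 0.58, and PDGFD at 19.7 ± 1.9 and 7.56 ± 0.20. PDGFRA and PDGFB, lower in every labelled knockout than in WT, were therefore barely present in the H2O cells of batch 1, and the lowest PDGFRA level in batch 2 (1.54 CPM) was still above the highest in batch 1 (0.700 CPM). THBS1, a matrix glycoprotein that binds PDGF, was at 1.06 CPM in H2O and 118.6 in WT, and COL3A1, a fibrillar collagen, at 3.28 and 154.9. The 11 HIF targets went the other way as a sum, at 1280 to 1282 CPM in H2O and 339.4 to 343.3 in WT.

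For each member tested in both batches with a log2 difference of at least 1 in some comparison, which leaves out PDGFA and PDGFB, the genes with the most similar 5 differences from control were looked up among 13372 others tested in both batches, as a description. PDGFRA was closest to THBS1 (root mean square difference 0.264 log2 units), FN1 (0.290), which encodes fibronectin, and PLAU (0.321), the urokinase protease. THBS1 had differences of 0.40 and 0.33 under CoCl2 and -2.37, -1.57 and -2.53 in TET2KO #1, #2 and #3, and the CoCl2 values were -0.02 and -0.08 without the second H2O library. PDGFRB was closest to CARD10 (0.133), ERBB3 (0.156), a receptor of the EGF receptor family, and ADAMTS10 (0.161), a secreted metalloprotease. PDGFD was closest to IL21R (0.194), CD200R1 (0.195) and DNAJA4 (0.239). PDGFD stood 394th from PDGFRB, at 0.732.

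Genes that handle PDGF outside the family were tested from lists. Of the 9 genes for ligand processing and matrix binding, 8 were tested, and at 50 µM CoCl2 against H2O 3 rose and 1 fell, beside 61.4% of all genes called. PLAT, the tissue plasminogen activator that cleaves latent PDGF-CC, rose by 0.64 log2 units (SE 0.041, edgeR adjusted p = 5.29e-33), from 33.4 ± 0.46 to 51.9 ± 1.1 CPM (SD, n = 2). ADAMTS1, a secreted metalloprotease, rose by 0.51 and SPARC, a matrix protein that binds PDGF, by 0.40. The median over the 8 was 0.32, beside 0.002 for all genes. Against WT, 4 fell in TET2KO #1, 4 fell and 1 rose in #2 (none rose without its first library), and 4 fell in #3, beside 17.5%, 26.3% and 18.9% of all genes called. THBS1 fell from 118.6 CPM to 22.9, 39.9 and 20.5 (log2 -2.37, -1.57 and -2.53), SPARC from 230.6 to 141.2, 157.9 and 118.1 (log2 -0.71, -0.55 and -0.96), and PLAU, which can cleave latent PDGF-DD, from 1.85 to 0.520, 0.774 and 0.477 (log2 -1.82, -1.25 and -1.99), though in #2 the call was lost without the first WT library (log2 -0.94). The list's median was -0.35, -0.20 and -0.27. THBS1 and PLAU are also among the genes most like PDGFRA above.

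The co-receptors are surface proteins that associate with PDGF receptors or their ligands. At 50 µM CoCl2 against H2O, 3 of the 4 tested rose and 1 fell, beside 61.4% of all genes called. NRP1 rose by 0.70 (SE 0.046, edgeR adjusted p = 3.96e-32), from 25.3 to 41.1 CPM, and ENG, best known as a TGF-beta co-receptor, by 0.49, whereas NRP2 fell by 0.51, from 44.9 to 31.6 CPM. Against WT, all calls were lower, 4 of 5 tested in TET2KO #1, 2 in #2 and 5 in #3. Of all genes, 17.5%, 26.3% and 18.9% were called there. NRP1 fell by 0.82 in #1 and 1.08 in #3 but differed by -0.09 in #2, and the 3 labelled knockouts differed (span 0.99, edgeR adjusted p = 1.81e-41). LRP1, a large endocytic receptor that binds PDGFRB, was lower in each (log2 -0.71, -0.39 and -0.62). CAV1 had 22 counts in WT, 2 in #1, 14 in #2 and 0 in #3. Its call in #3 (log2 -6.47, SE 2.00) is 1 of the 5 there, rests on these low counts and was lost in 2 of 13 alternatives.

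**Figure D4:**
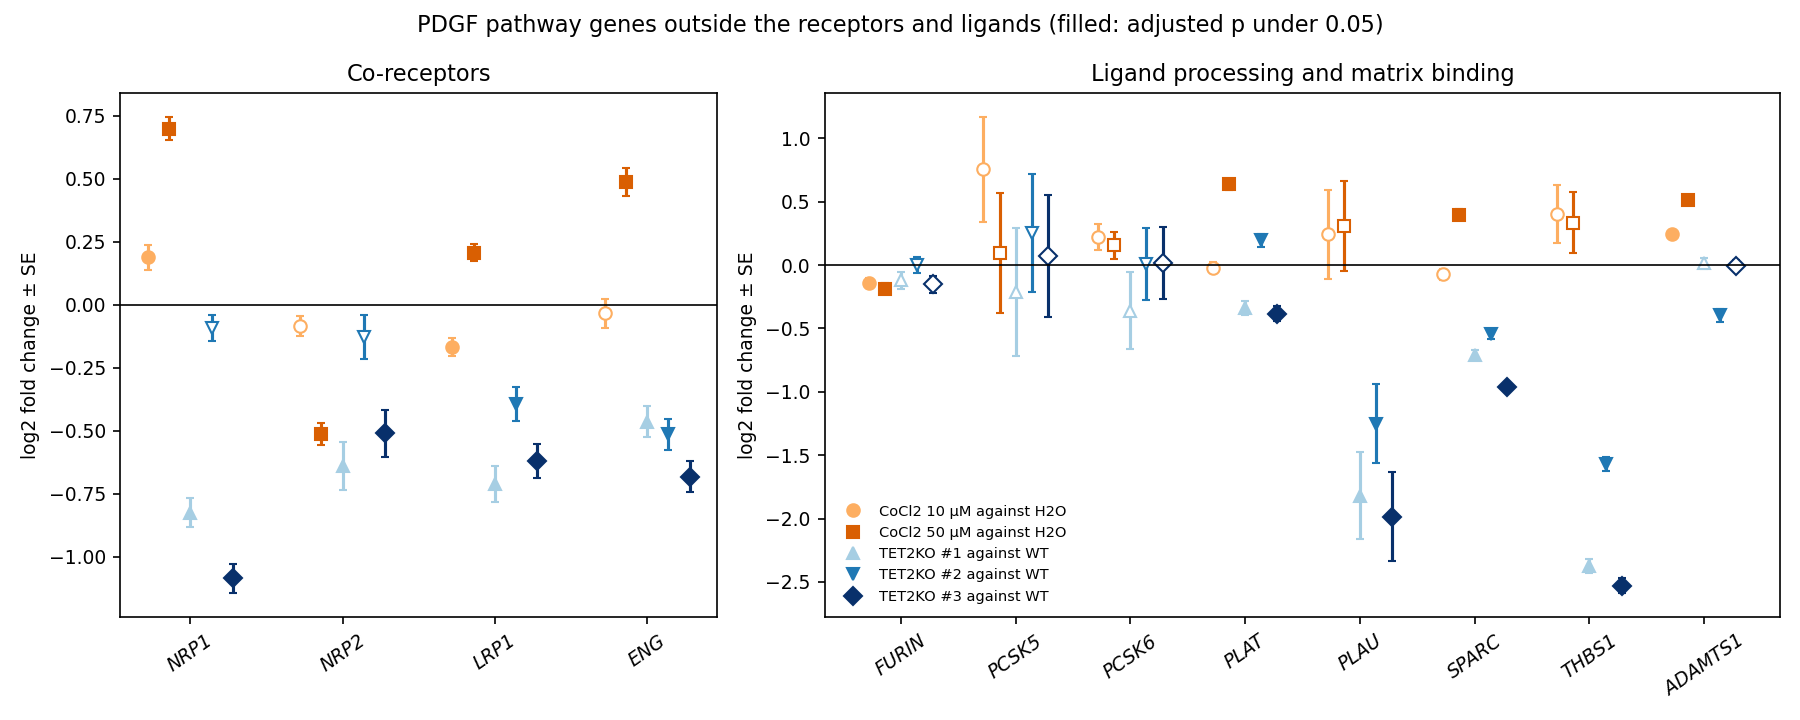
Points give the log2 fold change with SE bars (vertical axis) of co-receptors (left) and ligand-processing or matrix-binding genes (right) in the 5 comparisons with a control, filled where the adjusted p was under 0.05. CAV1 and ST14, at 22 counts or fewer per group, are not drawn. NRP1 is at 0.70 under 50 µM CoCl2 and at -1.08 in TET2KO #3, and THBS1 is at -2.37, -1.57 and -2.53 in the labelled knockouts.

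Among the proteins that carry the receptor signal inside the cell, differences were small. Of 22 tested, 8 rose and 6 fell at 50 µM CoCl2, near the 61.4% of all genes called, with a median of -0.005. In TET2KO #1, #2 and #3, 4, 2 and 3 were called, beside 17.5%, 26.3% and 18.9% of all genes. The kinase SRC fell by 0.55 at 50 µM (24.8 to 17.1 CPM, edgeR adjusted p = 1.61e-16) and the exchange factor VAV2 rose by 0.29. STAT3 was lower in all labelled knockouts (log2 -0.31, -0.43 and -0.37). Of the 15 negative regulators, 4 rose and 9 fell at 50 µM, with a median of -0.10, and 5 fell without the second 50 µM library. Among those called were 2 phosphatases that act on MAP kinases, DUSP4 at 0.71 (225.1 to 367.3 CPM) and DUSP6 at -0.56 (159.2 to 107.7 CPM). PTPRJ, a receptor phosphatase, was at -0.60, but at -0.30 and not called without the second H2O library, and the call was also lost without either 50 µM library. In the labelled knockouts 5 rose and 2 fell in #1 (3 rose without its second library or the second WT library, and 1 fell without its second library or the first WT library), 3 rose and 7 fell in #2, and 3 rose and 4 fell in #3. SOCS3, an inhibitor of cytokine signalling, fell from 3.78 to 0.993, 0.757 and 0.500 CPM. DUSP6 rose in #1 and #3 (log2 0.19 and 0.27) but fell in #2 (log2 -0.66), and the 3 differed (edgeR adjusted p = 3.38e-63). DUSP4 went the other way in #2, at 188.4 CPM in WT and 212.4, 242.3 and 206.5 CPM in #1, #2 and #3. A link of either gene to PDGFRB was not tested.

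Of the 6 related receptors, KIT, FLT3 and CSF1R were at most 0.288 CPM in every group. FLT1, a VEGF receptor, rose from 1.68 to 4.55 CPM at 50 µM CoCl2 (log2 1.44, SE 0.15, edgeR adjusted p = 3.72e-16). Against WT (9.97 CPM) FLT1 was lower in TET2KO #1 and #3 (7.52 and 3.98 CPM) and higher in #2 (23.9 CPM), the call in #1 being lost without the first WT library (log2 -0.26) or the second of #1, and the 3 differed (span 2.59, edgeR adjusted p = 1.41e-60). KDR fell from 2.73 CPM to 0.292, 0.252 and 0.978 CPM. Of 5 VEGF ligands listed, 4 were among the genes counted and were tested (VEGFB, VEGFC, VEGFD and PGF). VEGFA was not among these 4. At 50 µM 2 of them fell, PGF by 0.76 and VEGFB by 0.17, beside 61.4% of all genes called. CSF1R, which lies 0.5 kb from PDGFRB, was not called in any comparison (log2 0.31, SE 0.51, at 50 µM), and neither was CHIC2, the only tested gene within 500 kb of PDGFRA. Of the tested genes within 500 kb of PDGFRB, 5 of 12 were called at 50 µM, beside 61.4% of all genes, and 1, 4 and 3 of 13 in TET2KO #1, #2 and #3, beside 17.5%, 26.3% and 18.9%. PDGFRA shares 16.1% of its exon bases with a gene model on the same strand, AC058822.1, which had 0 counts, and PDGFD shares 4.53% with DDI1 on the other strand, which had 2 counts in all libraries together, so reads in these bases may not have been counted.

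Markers of cell types that carry the family in tissues moved with it in part. The mural and fibroblast markers summed to 11959 to 12533 CPM in batch 1 and 7309 to 7604 in batch 2, nearly all from RGS5, at 6640 to 11780 CPM in every group, while COL1A2 had 4 counts or fewer per group. At 50 µM CoCl2, 5 of 14 tested rose and 6 fell, beside 61.4% of all genes called. ANPEP (log2 -2.07), CSPG4 (-1.26) and ABCC9 (-1.11) were the farthest from 0. The shares of all genes called in TET2KO #1, #2 and #3 were 17.5%, 26.3% and 18.9%. In TET2KO #1, #2 and #3, 8 of 15 were lower in each and 2, 2 and 3 higher, with 1 higher in #1 without its first library and 1 in #2 without its second library or the first WT library. COL3A1 fell from 154.9 to 14.8, 27.5 and 12.9 CPM, and TAGLN, an actin-binding protein of smooth muscle, from 7.30 to 1.19, 2.34 and 1.97 CPM. DCN, which encodes the fibroblast proteoglycan decorin, rose from 21.5 to 44.3, 47.8 and 36.8 CPM (log2 1.04, 1.15 and 0.78). The endothelial and blood markers summed to 20.7 to 21.7 CPM in WT, 11.0 to 11.2 in TET2KO #1, 18.0 to 20.2 in #2 and 9.04 to 9.85 in #3, with CD68, a lysosomal protein of macrophages, at 11.1, 9.44, 14.8 and 7.73 CPM of these sums. Of 6 tested, 4, 3 and 5 were lower and 0, 1 and 0 higher in #1, #2 and #3, beside the same shares of all genes. PECAM1 had 309 counts in WT and 4, 20 and 10 in #1, #2 and #3, and 0 to 4 per group in batch 1, and CDH5 was at 4.56 CPM in WT and 0.705, 1.60 and 0.732 CPM. PF4 and PPBP were at 0 throughout. In batch 1 the list summed to 6.92 to 6.93 CPM in H2O and 19.6 to 19.9 at 50 µM, where CD68 rose from 5.20 to 18.9 CPM (log2 1.86), while CDH5 was at 0.685 and 0.264 CPM and TEK at 0.659 and 0.344 CPM. The Schwann and glial markers summed to 11.5 to 12.3 CPM in WT and 5.42 to 8.63 in the labelled knockouts, and to 6.10 to 6.69 in H2O and 3.75 to 3.97 at 50 µM, with FOXD3 at 0 and SOX10 at 8 counts or fewer per library. The part of these markers' cells in the values of PDGFRA, PDGFRB and PDGFB was not tested.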

How the data were processed

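The deposited counts are gene-level read counts from featureCounts (1.5.3 in batch 1 and 2.0.5 in batch 2, GENCODE release 33, protein-coding genes, GRCh38, paired mode, no strand option), per the file headers. The submitters' processing notes also name Trimmomatic 0.36, STAR 2.6.1d and Subread 1.5.3. The labels describe strand-specific oligo-dT libraries. The files' exon lengths gave CPM per kb. Each batch was fitted alone in R 4.3.3 with edgeR 4.0.16 (filterByExpr, TMM scaling, robust quasi-likelihood test), with Benjamini-Hochberg adjustment over the 13636 or 14061 genes tested and a threshold of 0.05. The dispersion was estimated at 7.66e-05 in batch 1, where it was held just above 0.0001. In batch 2 it was used as estimated, at 0.00046. SEs come from the test statistic. The functions were tested on simulated data. Precision follows from 31214128 to 59263320 counts per library and 2 libraries per group. Groups came from the labels. The members, gene lists and tests were chosen with earlier results of these data known. Genes named were all members, up to 3 called genes per list and comparison with the largest difference, and the 3 genes most like each member, and the others were named after their values were seen. No set test was run. Alternatives were DESeq2 1.42.0, RLE size factors, no low-count filter, a replicate block, all 14 libraries in 1 fit, batch 2 counts divided by 2, and leaving out each library. The 13 mitochondrial genes are at 0 in batch 1 and counted in batch 2.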

Additional observations from a re-analysis of the deposited data

Results flagged for a closer look

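3 members differed between the 3 labelled TET2 knockouts by a test of the difference itself (edgeR's F-test over the 3 groups, adjusted over all genes tested, which called 37.6% of them). Between the highest and the lowest of the 3, the log2 span was 1.15 for PDGFRB (edgeR adjusted p = 6.78e-32), with TET2KO #2 lowest at 13.9 ± 0.083 CPM (SD, n = 2). It was 1.06 for PDGFRA (edgeR adjusted p = 1.8e-05), with TET2KO #2 highest at 3.96 ± 0.53 CPM. It was 0.68 for PDGFD (edgeR adjusted p = 8.68e-05), with TET2KO #1 lowest at 4.82 ± 0.25 CPM. The family was chosen with these values known, so the p-values are not independent of that choice. Groups of 2 libraries are too small for a test of single outlying libraries.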

How the results depend on the processing

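The log2 values of PDGFRB, PDGFRA and PDGFD kept their direction under every alternative run, except PDGFD in TET2KO #3 against WT, not called at 0.03 and ranging from -0.084 to 0.116 when 1 library was left out. The members called stayed at 2 for CoCl2 10 µM against H2O and at 3 for the difference among the labelled knockouts. The other counts of members moved by 1, as given in the report. With the edgeR test, 3098, 8378 and 7198 genes were called at 10 µM, at 50 µM and between the doses, and 2462, 3698 and 2653 in TET2KO #1, #2 and #3. At 10 µM, 1121 were called with DESeq2 and 796 with all 14 libraries in 1 fit, which also called 4674 between the doses. The cause was not tested. Of 1968 list counts recomputed, 1836 stayed within 1.5 times and 132 did not.

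With 1 library left out, the counts of genes called ranged from 1862 to 3263 at 10 µM, from 5961 to 7212 between the doses, and from 1385 to 2579, 2411 to 3786 and 1566 to 2610 in TET2KO #1, #2 and #3. Fewer libraries alone lower such counts. Left-out libraries also turned the sign of values that were not called, THBS1 at 10 µM (-0.015 to 0.976) and 50 µM (-0.082 to 0.909), ERBB3 at 10 µM (-0.305 to 0.006), DNAJA4 in #2 (-0.103 to 0.101) and IL21R in #2 (-0.618 to 0.128). ADAMTS10 in #3 ranged from -0.905 to 0.252.

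The labels give every group replicates 1 and 2, but same-numbered libraries did not deviate together (correlations -0.046 to 0.023). This check cannot exclude a pairing, since noise of counting between 2 libraries could hide it. The numbers were not used as pairs in the main fit. With the number as a replicate block, the counts were 2968, 8303 and 7113 genes under CoCl2, 2228, 3502 and 2458 in TET2KO #1, #2 and #3 and 5054 among the labelled knockouts (5292 without it), and every count of members called was as without it.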
